A study of Mus musculus with 32 samples.

Results

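The naive pluripotency transcription factors examined here were 10 genes of mouse embryonic stem (ES) cells: Klf2, Klf4, Klf5, Esrrb, Nr5a2, Nr0b1, Tbx3, Tfcp2l1, Zfp42 and Prdm14. Their probes were those annotated to one of these symbols and to no other gene. This gave 24 of the 45037 probe sets tested on the Affymetrix arrays, covering 10 of 18193 genes, and 9 of the 21106 probes on the 2-colour arrays, covering 9 of 12034 genes. Prdm14 was not analysed here on the 2-colour arrays. Each gene was represented by the probe set of highest mean, or by the 2-colour probe with most values, and the other probe sets are given below.

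All cells were E14TG2a, an established mouse ES cell line (ATCC CRL-1841). In the knockdown experiment, cells carried a pSUPER-puro plasmid for RNA interference against Pou5f1 (4 arrays), the same against Nanog (5 arrays), or the parental pSUPER-puro vector (5 arrays). All 3 groups were transfected with Lipofectamine and then selected with 1 µg/ml puromycin, added 24 h later for 3 days, and no RNAi against an unrelated target was analysed here. In the differentiation experiment, cells were treated with 0.1 µM retinoic acid (RA, a vitamin A derivative that activates nuclear receptors), 1% dimethyl sulfoxide (DMSO, a polar solvent) or 3 mM hexamethylene bisacetamide (HMBA, a polar compound used to induce differentiation). RNA was taken on days 2, 4 and 6, and 2 arrays of opposite dye orientation set each treatment and day against untreated E14 cells. The labels do not say whether the arrays of a group came from separate cultures, so p-values measure the spread between arrays, which may be technical.

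Pou5f1, Sox2 and Nanog form the core of the pluripotency network in mouse ES cells, and the factors described here act with them under the cytokine LIF to hold the naive state of the preimplantation epiblast. Klf2, Klf4 and Klf5 are Krüppel-like zinc-finger activators, Esrrb and Nr5a2 are orphan nuclear receptors that bind related DNA sites, and Nr0b1 (Dax1) is an atypical nuclear receptor known to restrain other nuclear receptors and Pou5f1. Tbx3 is a T-box factor, Tfcp2l1 a CP2-family factor downstream of Stat3, Zfp42 (Rex1) the zinc-finger protein most used as a marker of naive cells, and Prdm14 a PR-domain protein that represses genes of the primed state.

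RefSeq promoter sequences (GRCm38.p6) were given for 7 of the 10 genes, as 9 promoters, and not for Klf5, Tbx3 and Prdm14. The 250 bases before each transcription start were searched on both strands for short motifs of the factors that act in this network. Zfp42, Nr0b1, Klf4 and Esrrb fell in both knockdowns and all 3 treatments, and of these the promoters of Zfp42 and Nr0b1 are printed. Those of Klf2 and Nr5a2, which were called lower after Pou5f1 RNAi and not after Nanog RNAi, are printed as well. Klf5 had the same calls but no promoter sequence. Each printed promoter runs 5′ to 3′ on the strand of the gene. The last base lies next to the start, which for Nr5a2 is the more downstream of its 2 starts in the table. Capitals mark matches to the octamer (ATGCAAAT) and its core (TGCAAA), the Sox core (CNTTGT), the Klf box (GGGNGTG) and the GC box (GGGCGG), or their reverse complements.
Zfp42, chr8:43307010-43307259, minus strand: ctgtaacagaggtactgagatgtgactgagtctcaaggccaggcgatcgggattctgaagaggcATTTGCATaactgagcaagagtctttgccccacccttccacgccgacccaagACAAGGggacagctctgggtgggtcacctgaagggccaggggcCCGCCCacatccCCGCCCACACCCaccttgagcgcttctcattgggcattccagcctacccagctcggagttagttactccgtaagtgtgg
Nr0b1, chrX:86191525-86191774, plus strand: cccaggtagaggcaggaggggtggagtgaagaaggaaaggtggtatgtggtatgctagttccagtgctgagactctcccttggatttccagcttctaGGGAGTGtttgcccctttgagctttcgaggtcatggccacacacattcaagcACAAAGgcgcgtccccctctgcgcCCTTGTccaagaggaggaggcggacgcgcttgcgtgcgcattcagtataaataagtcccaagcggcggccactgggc
Klf2, chr8:72318812-72319061, plus strand: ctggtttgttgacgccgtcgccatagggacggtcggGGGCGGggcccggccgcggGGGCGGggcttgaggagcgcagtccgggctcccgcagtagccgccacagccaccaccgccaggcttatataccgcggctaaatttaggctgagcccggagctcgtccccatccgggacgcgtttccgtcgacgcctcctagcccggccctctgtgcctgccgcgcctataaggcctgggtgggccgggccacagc
Nr5a2, chr1:136953631-136953880, minus strand: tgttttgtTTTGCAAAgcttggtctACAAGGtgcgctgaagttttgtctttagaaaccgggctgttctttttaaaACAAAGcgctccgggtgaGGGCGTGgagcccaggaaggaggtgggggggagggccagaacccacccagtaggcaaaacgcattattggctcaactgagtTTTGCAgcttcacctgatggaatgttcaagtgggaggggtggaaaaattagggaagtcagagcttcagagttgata

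The full octamer, the site of Pou5f1 and other POU factors, was found in 1 of the 9 promoters, that of Zfp42, from 186 to 179 bases before the start, while 1.6% of all 32851 RefSeq mouse promoters of that length held it. The core alone lay in 3 of the 9 promoters, against 13.5% of all, and in Zfp42 it is part of the octamer. In the printed promoter, Nr5a2 held it on both strands in 1 palindrome, 242 to 235 bases before the start, and again 76 to 71 bases before it. The other Nr5a2 promoter, that of the more upstream start, held no match to any motif searched. The Sox core was present in 3 of 9 promoters (Nr0b1, Nr5a2 and Zfp42), against 36.3% of all. The Klf box was present in 5 of 9, against 26.1%, and the GC box in 3 of 9, against 32.7%; in Zfp42 the 2 motifs overlap by 1 base. Klf2 held 2 GC boxes and none of the other motifs searched. Neither the monomer site of Esrrb and Nr5a2 (AAGGTCA, 4.08% of all) nor the Stat3 site (TTCCNGGAA, 0.913%) was in any of the 9. These are matches of letters in a short window and no measure of binding.

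The knockdown arrays carry log2 levels made by RMA, and a probe set was called at a Benjamini-Hochberg adjusted p under 0.05 in limma over all probe sets. The targeted genes were lower as labelled: Pou5f1 changed by -2.38 ± 0.10 (log2, ± SE) after its own RNAi, and Nanog by -1.81 ± 0.08 after its own. Nanog also fell after Pou5f1 RNAi (-1.40 ± 0.09), whereas Pou5f1 after Nanog RNAi differed from vector by -0.10 (95% confidence interval -0.29 to 0.10). With vector, Pou5f1, Sox2, Nanog and Zfp42 were at or above percentile 98.5 of all probe sets on every array. Vector replicates 4 and 5 and Nanog RNAi replicate 4 are called here the 3 arrays that stood apart. They deviated from their group means together (r = 0.13 to 0.44 across probe sets). They deviated away from replicates 1 to 3 of vector and Nanog RNAi (r = -0.60 to -0.05), though deviations from a group's own mean lean to negative r within that group. Vector replicate 5 also deviated together with Nanog RNAi replicate 5 (r = 0.39) and Pou5f1 RNAi replicate 3 (r = 0.37). The 3 are therefore not a sharply separate set, and results that turn on them are given with and without them.

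Knockdown of Pou5f1 lowered most of the set and raised 1 of its genes. Of the 10 genes, 8 fell, against 19.5% of all genes called lower, 1 rose (Tbx3), against 20.6% called higher, and Tfcp2l1 was not called. The median change was -1.32, against -0.04 over all genes. By probe set, 14 of 24 were lower, against 15.6% of all probe sets, and 2 were higher, against 16%. In bulk RNA, fewer cells that express a gene and less RNA per cell cannot be told apart.

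Nr0b1 changed most. Nr0b1 read 6.22, 6.19, 5.78 and 5.99 after Pou5f1 RNAi, 8.39, 8.37, 8.48, 8.46 and 8.56 after Nanog RNAi and 9.23, 9.50, 9.51, 9.31 and 9.39 with vector. The 3 groups did not overlap, and the level after Pou5f1 RNAi was 10.2-fold below vector (-3.35 ± 0.09, adjusted p = 1.7e-16). Zfp42 kept the same order of groups. Its levels were 10.06, 9.84, 9.81 and 9.86 after Pou5f1 RNAi, 11.12, 11.03, 11.15, 11.12 and 11.05 after Nanog RNAi and 11.66, 11.56, 11.68, 11.81 and 11.73 with vector. No array of one group reached another, and the change after Pou5f1 RNAi was -1.79 ± 0.08 (adjusted p = 1e-13), a 3.47-fold fall.

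The 3 Klf genes all fell after Pou5f1 RNAi. Klf2 read 8.65, 8.56, 8.55 and 8.57 after Pou5f1 RNAi, 9.93, 9.99, 9.94, 9.998 and 10.40 after Nanog RNAi and 10.15, 10.37, 10.23, 10.05 and 10.13 with vector. Its arrays after Pou5f1 RNAi lay close together and below all others (-1.60 ± 0.09, 3.04-fold), while those after Nanog RNAi overlapped vector. Klf4 read 8.71, 8.78, 8.69 and 8.57 after Pou5f1 RNAi, 9.41, 9.39, 9.40, 8.98 and 9.33 after Nanog RNAi and 10.32, 10.30, 10.38, 9.99 and 9.997 with vector. Klf4 separated all 3 groups on this probe set, and its change after Pou5f1 RNAi was -1.51 ± 0.10. Klf5 gave 9.33, 9.07, 9.07 and 9.17 after Pou5f1 RNAi, 10.08, 10.01, 10.05, 9.77 and 10.36 after Nanog RNAi and 10.42, 10.63, 10.57, 9.97 and 9.96 with vector. The fall with Pou5f1 RNAi (-1.15 ± 0.14) cleared every vector array, although vector replicates 4 and 5 were the lowest of their group.

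Among the nuclear receptors, Nr5a2 read 7.53, 7.45, 7.33 and 7.54 after Pou5f1 RNAi, 8.88, 8.77, 8.68, 8.39 and 8.97 after Nanog RNAi and 8.78, 8.92, 8.89, 8.35 and 8.35 with vector. It was lower after Pou5f1 RNAi on every array (-1.19 ± 0.13), and the Nanog RNAi and vector arrays overlapped. Esrrb levels were 8.56, 8.46, 8.12 and 8.30 after Pou5f1 RNAi, 8.74, 8.81, 8.48, 8.56 and 8.49 after Nanog RNAi and 9.48, 9.47, 8.97, 9.29 and 9.27 with vector. Both knockdowns lay below all vector arrays and overlapped each other. The probe set of highest mean gave the smallest Esrrb change after Pou5f1 RNAi (-0.94 ± 0.11), and the other 2 gave -1.56 ± 0.16 and -1.82 ± 0.08.

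Prdm14 was lower as well. Prdm14 read 5.11, 5.06, 5.34 and 5.16 after Pou5f1 RNAi, 5.51, 5.54, 5.68, 5.43 and 5.82 after Nanog RNAi and 6.40, 6.29, 6.68, 6.68 and 6.98 with vector. All 3 groups were separate, with a change of -1.44 ± 0.12 after Pou5f1 RNAi. Its mean levels after Pou5f1 RNAi (5.16) and Nanog RNAi (5.60) were not far above the array medians (4.57 to 4.66).

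Tbx3 ran the other way. Tbx3 read 9.01, 8.92, 8.99 and 8.87 after Pou5f1 RNAi, 8.08, 7.96, 8.03, 7.94 and 8.22 after Nanog RNAi and 8.06, 8.12, 8.22, 8.27 and 8.19 with vector. Every Pou5f1 RNAi array was above every other array, a rise of 0.77 ± 0.08 or 1.71-fold (adjusted p = 5.7e-08). Another probe set also rose (0.79 ± 0.12), and the 3 remaining ones, all of lower mean, were not called. In the same arrays the trophectoderm markers (Krt8, Krt18, Plac1, Krt7, Cdx2 and others) were higher: 12 of 12 were called, against 20.6% of all genes called higher. Their summed linear level was 22751 to 24194 after Pou5f1 RNAi, 2485 to 3336 after Nanog RNAi and 879 to 1026 with vector. The mean of Elf5 was below the array median in all 3 groups, and those of Cdx2, Gata3 and Krt7 were below it with vector. Their part in the Tbx3 rise was not tested.

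Tfcp2l1 was the exception. Tfcp2l1 read 8.53, 8.54, 8.58 and 8.55 after Pou5f1 RNAi, 8.29, 8.36, 8.28, 8.37 and 8.45 after Nanog RNAi and 8.12, 8.42, 8.38, 8.55 and 8.56 with vector. The Pou5f1 RNAi arrays overlapped the upper vector arrays, and the difference of 0.14 had a 95% interval of -0.03 to 0.32 (adjusted p = 0.233). Without the 3 arrays that stood apart it was called higher, at 0.24 (adjusted p = 0.0434), a choice made after seeing the data. The other 2 probe sets of Tfcp2l1 were below the array median (4.57 to 4.66) on all 14 arrays and were not called.

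**Figure D1:**
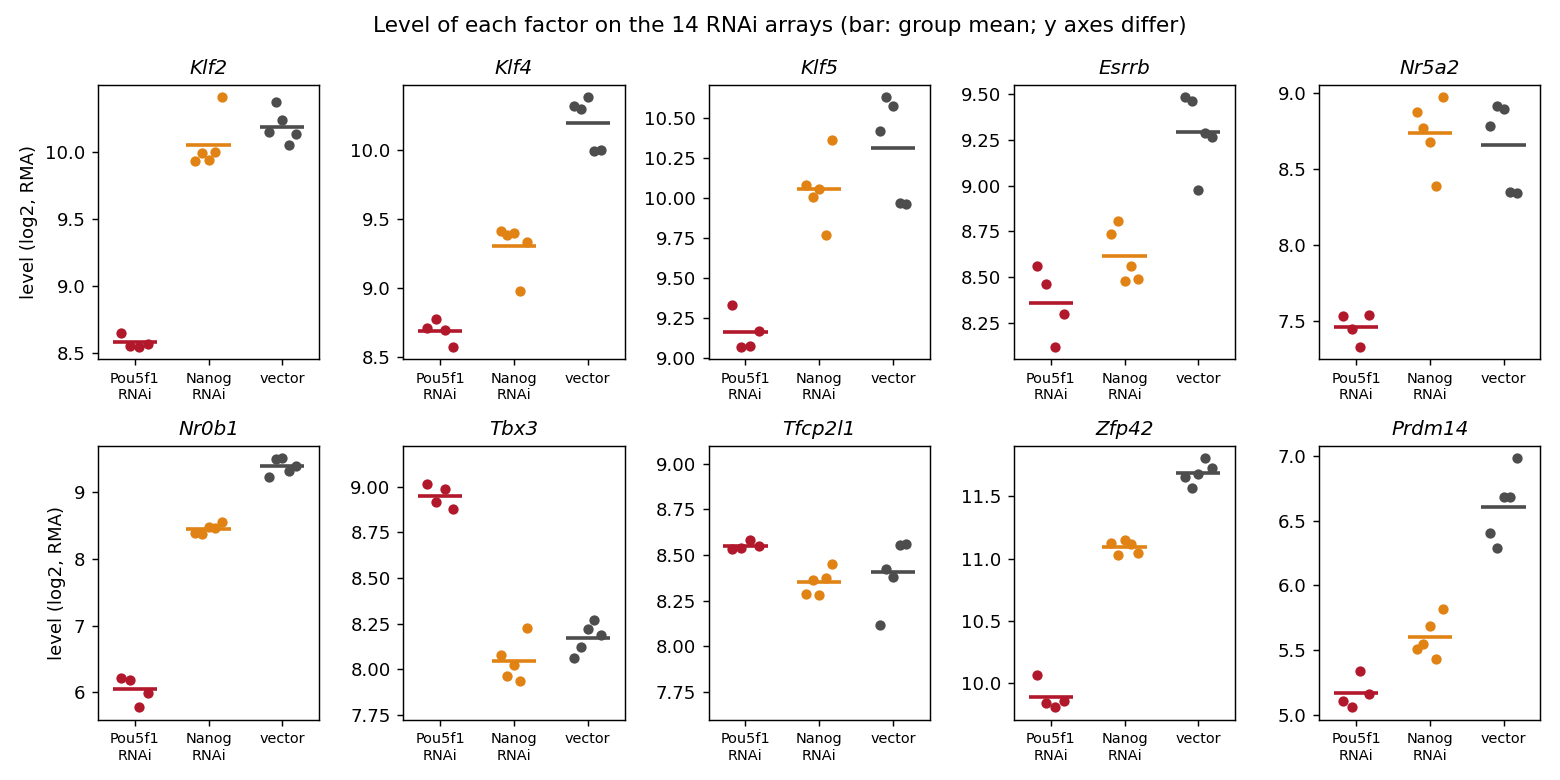
Level of each factor by array in the knockdown experiment, as log2 RMA values of the probe set of highest mean, with group means as bars and a separate y axis per gene. Nr0b1, Zfp42, Klf4 and Prdm14 are lowest after Pou5f1 RNAi, intermediate after Nanog RNAi and highest with vector, Klf2 and Nr5a2 are low in the 4 Pou5f1 RNAi arrays alone, and Tbx3 is high there.

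Nanog RNAi lowered 5 of the 10 genes, against 8.77% of all genes called lower, and raised 0 by limma, against 12.1% called higher; at an unadjusted p under 0.05 the number raised was also 0. The genes that fell were Prdm14 (-1.01 ± 0.11), Nr0b1 (-0.94 ± 0.09), Klf4 (-0.90 ± 0.10), Esrrb (-0.68 ± 0.10) and Zfp42 (-0.59 ± 0.07), with adjusted p between 1.4e-07 and 8.2e-05. In each of these 5 the Nanog RNAi and vector arrays did not overlap on the probe set of highest mean. They were called on the same values, so this adds no further support, and the share of all genes without overlap was not counted. The median over the 10 genes was -0.42, against -0.02 over all genes, and 9 of 24 probe sets were lower, against 6.78% of all probe sets.

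The remaining 5 were not called after Nanog RNAi. Klf2 differed from vector by -0.13 (95% interval -0.32 to 0.05), Klf5 by -0.25 (-0.52 to 0.01) and Nr5a2 by 0.08 (-0.18 to 0.33). Tbx3 differed by -0.13 (-0.28 to 0.02) and Tfcp2l1 by -0.06 (-0.22 to 0.11). For 2 of the Klf genes the outcome depended on arrays. Without the 3 arrays that stood apart Klf5 was called lower, at -0.41 (adjusted p = 0.00997), and with replicates 1 to 3 of each group alone it changed by -0.49 (adjusted p = 0.0033) and Klf2 by -0.30 (adjusted p = 0.0381). One Tbx3 probe set of low level was called lower after Nanog RNAi (-0.36 ± 0.09), unlike the other 4.

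Klf4, Klf5, Nr5a2 and Esrrb were each measured by further probe sets of lower mean. The other Klf4 probe set changed by -1.71 ± 0.21 after Pou5f1 RNAi and -0.80 ± 0.20 after Nanog RNAi. On that probe set the Nanog RNAi and vector arrays overlapped (highest 8.54 after Nanog RNAi, lowest 8.51 with vector). After Pou5f1 RNAi, 1 other Klf5 probe set fell (-1.04 ± 0.12), and 2 other Nr5a2 probe sets fell (-1.43 ± 0.10 and -0.74 ± 0.08). The dimmest of each of these 2 genes was not called (-0.08 for Klf5 and -0.18 for Nr5a2). After Nanog RNAi the other Esrrb probe sets changed by -1.34 ± 0.07 and -1.33 ± 0.15.

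**Figure D2:**
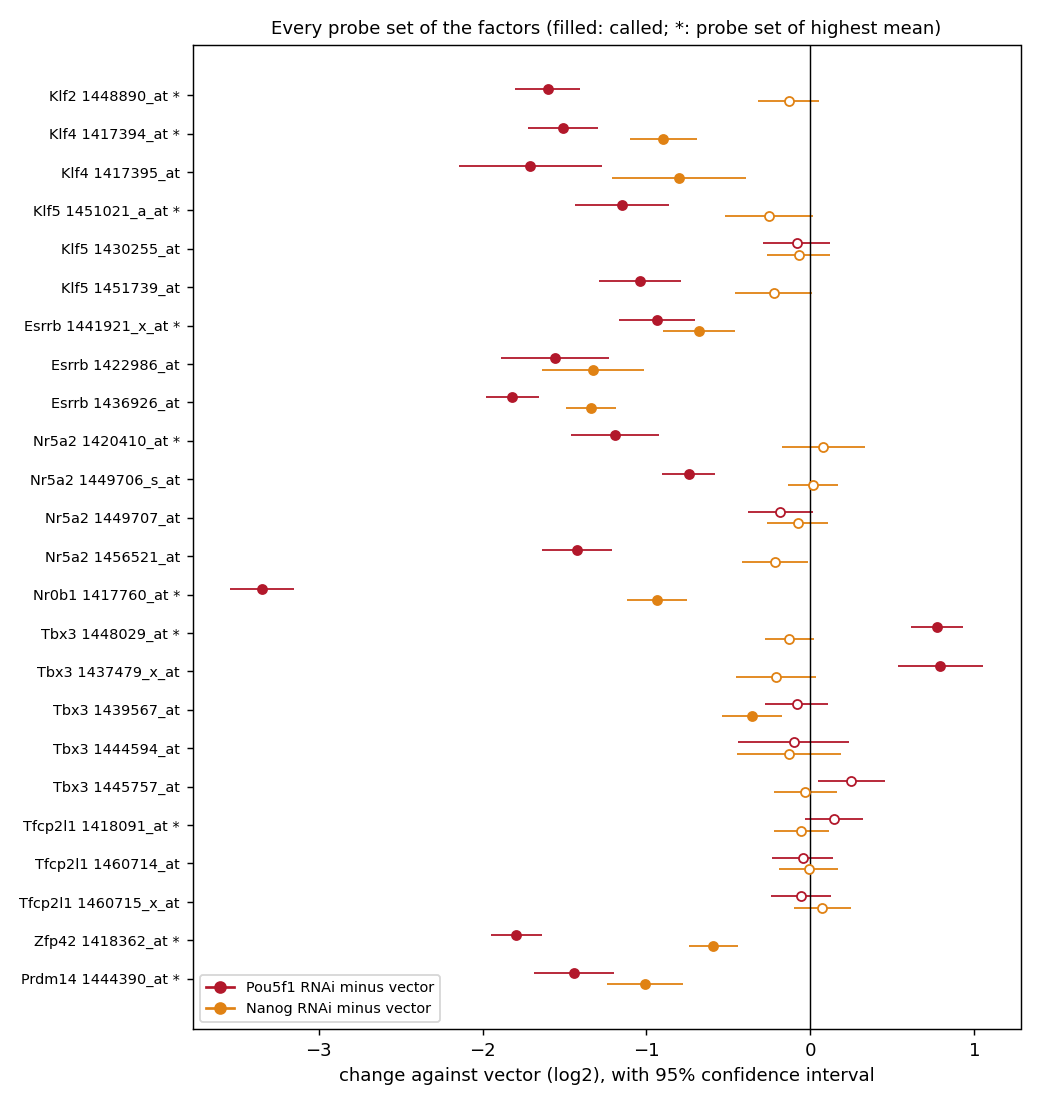
Change of every probe set of the 10 factors after Pou5f1 RNAi and after Nanog RNAi, each against vector, in log2 with 95% confidence intervals; filled points were called. Probe sets of a gene mostly lie together, while Tfcp2l1, Tbx3, Klf5 and Nr5a2 each have weak probe sets near 0.

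Both knockdowns share the vector arrays, so their changes are not independent, and the direct contrast between them was tested. Against Nanog RNAi, Pou5f1 RNAi gave lower levels of 7 genes, where 18.6% of all genes were called lower, and a higher level of 1, where 18.8% were called higher. The 7 were Nr0b1 (-2.41), Klf2 (-1.47), Nr5a2 (-1.27), Zfp42 (-1.20), Klf5 (-0.90), Klf4 (-0.61) and Prdm14 (-0.43), and the 1 was Tbx3 (0.90 ± 0.08). The median over the 10 was -0.75, against -0.01 over all genes. Esrrb differed by -0.26 (95% interval -0.49 to -0.02, adjusted p = 0.0974) on its main probe set, and 1 of its other probe sets was called (-0.48 ± 0.08). Tfcp2l1 differed by 0.20 (0.02 to 0.38) and was not called after adjustment.

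Other genes of the network were counted in lists chosen with earlier results of these data known. Beside these counts, 19.5% of all genes were called lower and 20.6% higher after Pou5f1 RNAi, and 8.77% lower and 12.1% higher after Nanog RNAi. Of 16 core pluripotency and LIF pathway genes, 13 fell and 1 rose after Pou5f1 RNAi (median -1.86), and 7 fell and 4 rose after Nanog RNAi (median -0.18). The smallest p-values after Pou5f1 RNAi were those of Tdgf1, a Nodal co-receptor (-2.85 ± 0.09), Fgf4, an autocrine growth factor (-3.12 ± 0.11), Lifr, a LIF receptor subunit (-2.11 ± 0.07), and Eras, a Ras-like GTPase of ES cells (-2.48 ± 0.09). With RA, 9 of 15 fell and 1 rose (10.5% of all genes lower and 17% higher), with DMSO 12 fell (8.6% lower and 10.7% higher), and with HMBA 12 fell and 1 rose (12.8% lower and 15.5% higher). Of 10 formative and primed epiblast genes, 7 fell and 1 rose after Pou5f1 RNAi, and 4 fell and 2 rose after Nanog RNAi. In that list 5 fell and 2 rose with RA, 2 fell and 4 rose with DMSO, among them Lef1 (1.07 ± 0.11) and Fgf5, a marker of the primed state (1.81 ± 0.24), and 4 fell and 1 rose with HMBA.

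Relatives of the factors were called in both directions after Pou5f1 RNAi, where 19.5% of all genes were lower and 20.6% higher, and the receptor and Prdm counts lie near those shares. Of 13 other Klf genes, 5 fell and 4 rose after Pou5f1 RNAi, and the 4 with the smallest p were Klf6 (3.01 ± 0.15), Klf10 (-1.12 ± 0.08), Klf3 (-0.93 ± 0.08) and Klf15 (-1.18 ± 0.12). After Nanog RNAi 2 fell and 2 rose (8.77% of all genes lower and 12.1% higher). Of 5 other receptors of the Esrr, Nr5, Nr6 and Nr0 groups, Nr6a1 rose (0.63 ± 0.09) and Nr0b2 fell (-0.39 ± 0.12) after Pou5f1 RNAi, and Nr6a1 rose after Nanog RNAi (0.42 ± 0.08). Of 12 other T-box, grainyhead-like and CP2 genes, 4 rose and 1 fell after Pou5f1 RNAi, with Grhl3 (0.86 ± 0.10) and Ubp1 (0.88 ± 0.11) first by p, and 5 rose after Nanog RNAi. Of 7 other Prdm genes, 2 rose and 1 fell after Pou5f1 RNAi, Prdm2 by 0.67 ± 0.09 and Prdm1 by -1.04 ± 0.14, and 1 fell after Nanog RNAi, also Prdm1 (-0.84 ± 0.13).

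Markers of other cell types were counted in the same way, beside 19.5% of all genes lower and 20.6% higher after Pou5f1 RNAi and 8.77% lower and 12.1% higher after Nanog RNAi. Of 12 trophectoderm markers, 11 rose after Nanog RNAi. Of 10 primitive endoderm markers, 1 rose and 6 fell after Pou5f1 RNAi, and 4 rose and 0 fell after Nanog RNAi. Their summed linear levels were 2275 to 2518 after Pou5f1 RNAi, 1629 to 2084 after Nanog RNAi and 1414 to 1586 with vector. A linear sum leans to the brightest genes, so it can rise while most of a list falls. The means of 5 of the 10 were below the array median after Pou5f1 RNAi, 2 after Nanog RNAi and 3 with vector. Of 8 fibroblast markers, 1 rose and 2 fell after Pou5f1 RNAi, and of 6 neural markers 2 rose and 2 fell. After Nanog RNAi 1 rose and 1 fell, and 1 rose and 2 fell, of those lists. Fibroblast sums were 1119 to 1167 after Pou5f1 RNAi, 2066 to 2319 after Nanog RNAi and 1367 to 1627 with vector. In these groups 6, 5 and 5 of the 8 fibroblast markers had means below the array median, and 4, 2 and 2 of the 6 neural markers. The part of all these markers in the values of the 10 factors was not tested.

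As a description of likeness, the genes whose levels followed each factor most closely over the 14 knockdown arrays were listed by Pearson's r. These arrays share the 3 groups. Klf2 was followed by Utf1 (r = 0.995), Tcea3 (r = 0.995) and Lig1 (r = 0.994), Klf4 by Mycl (r = 0.978), Jarid2 (r = 0.976) and Fgd1 (r = 0.975) and Klf5 by Bzw2 (r = 0.977), Cxxc5 (r = 0.969) and Col2a1 (r = 0.968). For the nuclear receptors, the nearest to Nr0b1 were Liph (r = 0.996), Dpy30 (r = 0.995) and Jam2 (r = 0.995), and those to Nr5a2 were Mthfd2 (r = 0.988), Pus7 (r = 0.987) and Cox17 (r = 0.986). Esrrb shared its nearest gene with Klf4, having Mycl (r = 0.939), Fam81a (r = 0.938) and Klf15 (r = 0.934). Zfp42 was followed by Tet1 (r = 0.994), Lifr (r = 0.993) and Ifitm1 (r = 0.993), and Prdm14 by Zfp59 (r = 0.983), Ddc (r = 0.980) and Klhl24 (r = 0.978). Tbx3, the gene that rose after Pou5f1 RNAi, had Itga6 (r = 0.988), Ncoa2 (r = 0.986) and Flot2 (r = 0.985), and Tfcp2l1 had Napg (r = 0.943), Cdk13 (r = 0.940) and Ift46 (r = 0.926).

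In the differentiation experiment each value is a log ratio of treated over untreated cells on 1 array. No source used here states the base of the logarithm; it was taken as 2. Below, the array with treated cells in Cy3 is given first. Dye orientation paired the arrays: Cy5 and Cy3 readings of a gene differed on average by -1.20 for Klf4, -1.15 for Zfp42, -0.65 for Nr0b1 and 0.96 for Klf5, with the same sign in all pairs that had both values. A fit with dye orientation as a replicate block is therefore given wherever it changes a call. Every ratio is against untreated E14 cells, and whether all arrays shared the same untreated RNA is not known here. The treatments' values are set side by side, and contrasts between treatments are differences of these ratios.

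Averaged over days, RA lowered 7 of the 9 genes (10.5% of all genes called lower), DMSO 8 (8.6%) and HMBA 7 (12.8%), by limma without the block, and 0 were higher (17%, 10.7% and 15.5% of all genes). At an unadjusted p under 0.05, 1 was higher with RA (Tbx3), 0 with DMSO and 0 with HMBA. The medians over the 9 were -1.36, -1.96 and -1.70, against 0.01, 0.02 and 0.001 over all genes. With the block the counts of lower genes were 8, 8 and 8 (22.8%, 20.1% and 25.6% of all genes), and Tbx3 was called higher with RA (29.8% of all genes higher). Nr0b1, Nr5a2, Zfp42, Esrrb and Klf4 were below untreated cells on every array that had a value, in every treatment. The share of all genes that were so on every array was not counted.

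Nr0b1 again changed most. On days 2, 4 and 6 its log ratios were -2.05 and -2.68, -3.98 and -4.42, and -3.45 and -4.36 with RA. With DMSO they were -3.30 and -3.87 on day 2, -4.84 on the single array with a value on day 4 and -5.87 on the single one on day 6. With HMBA they were -3.39 and -3.99, -5.11 and -5.73, and -3.77 and -4.57. No treated array came within 2 log units of untreated cells, and the means over days were -3.49 ± 0.17 with RA, -4.76 ± 0.23 with DMSO and -4.43 ± 0.17 with HMBA.

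Zfp42 read -0.67 and -2.35 on day 2, -1.68 and -2.61 on day 4, and -1.21 and -2.22 on day 6 of RA. With DMSO the readings were -2.11 and -3.40, -3.79 and -4.93, and -4.09 and -5.05, and with HMBA -2.34 and -3.11, -3.05 and -4.20, and -2.11 and -3.50. The Cy5 array was the lower one of each pair, and the falls averaged -1.79 ± 0.30, -3.89 ± 0.30 and -3.05 ± 0.30 with RA, DMSO and HMBA. Klf4 showed the same order of treatments. Its lowest, median and highest of 6 arrays were -2.99, -1.73 and -0.99 with RA, -4.88, -3.46 and -2.61 with DMSO and -3.82, -2.42 and -1.13 with HMBA. Mean falls of Klf4 were -1.80 ± 0.32 with RA, -3.64 ± 0.32 with DMSO and -2.50 ± 0.32 with HMBA.

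The orphan receptors Nr5a2 and Esrrb were low in every treatment. The lowest, median and highest of 6 arrays for Nr5a2 were -2.46, -2.21 and -0.56 with RA, -2.92, -2.74 and -1.65 with DMSO and -2.95, -2.09 and -1.84 with HMBA. For Esrrb they were -1.61, -1.41 and -1.02 with RA, -2.15, -1.87 and -1.81 over 5 arrays with DMSO and -1.97, -1.74 and -1.35 with HMBA. Both genes were called lower on each of the 9 treatment days, and their smallest mean falls were those of RA day 2 (-0.99 and -1.20). The Nr5a2 call on RA day 2 was lost without its Cy3 array (-0.56, adjusted p = 0.268).

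Klf2 had the smallest mean change of the 9 genes in each treatment. Its 6 arrays ranged from -0.26 to 0.23 with DMSO (mean 0.02, 95% interval -0.22 to 0.27) and from -0.30 to 0.09 with HMBA (mean -0.10, interval -0.35 to 0.14). With RA they ranged from -0.70 to 0.08 and averaged -0.34 ± 0.11 (adjusted p = 0.0432), a call lost without 12 of the 18 arrays left out in turn, for example without RA day 2 in Cy5 (-0.21, adjusted p = 0.179). Klf5 was lower with DMSO on all 6 arrays (-1.83 ± 0.29). With RA it averaged -0.79 ± 0.29 (adjusted p = 0.0657) and with HMBA -0.77 ± 0.29 (adjusted p = 0.0744), both called lower with the block (adjusted p = 0.00016 and 0.000206). With RA 1 of 6 Klf5 arrays was above untreated cells (0.33), and with HMBA 2 of 6 (0.26 and 0.29, both of day 2). The block takes the same dye offset for all treatments. The Cy5 minus Cy3 gaps of Klf5 on days 2, 4 and 6 were 1.71, 0.90 and 1.62 with RA and 0.03, 0.50 and 0.21 with HMBA.

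Tbx3 differed in direction between treatments. With RA it read 0.40 and -0.06 on day 2, 0.41 and 0.08 on day 4, and 1.22 and 0.54 on day 6, so 5 of 6 arrays were above untreated cells. With DMSO it read -0.91 and -1.51, -1.41 and -1.49, and -1.05 and -1.44, all below. With HMBA it read -0.77 and -1.70, -0.16 and -0.63, and 0.24 and -0.41, low on day 2 and near untreated cells by day 6. The means were 0.43 ± 0.15 with RA (adjusted p = 0.0575, and 0.00014 with the block), -1.30 ± 0.15 with DMSO and -0.57 ± 0.15 with HMBA. Without either array of HMBA day 2, or without RA day 6 in Cy5, the RA mean was called higher without the block too (0.43 to 0.55, adjusted p = 0.0425 to 0.0447). The HMBA call was lost without each of 3 arrays, all in Cy5 (HMBA day 2, -0.41; day 4, -0.49; day 6, -0.46). On RA day 6 alone Tbx3 was called higher (0.88 ± 0.27, 10.8% of all genes), a call lost without any 1 of 8 arrays, among them the 2 of day 6 (0.54 without the Cy3 array, 1.22 without the Cy5 array). In the same treatments 6 of 10 trophectoderm markers measured rose with RA (17% of all genes higher). With DMSO 1 rose (10.7%) and with HMBA 5 (15.5%). The numbers of these markers that fell are not given here, and their part in the Tbx3 values was not tested. Tfcp2l1 was called lower with all 3 treatments, by -0.45 ± 0.13 with RA, -0.96 ± 0.13 with DMSO and -0.57 ± 0.13 with HMBA, and 17 of its 18 arrays were below untreated cells. Its RA call was lost without RA day 2 in Cy3 (-0.34, adjusted p = 0.116) and without any 1 of 3 others, both arrays of RA day 4 and RA day 6 in Cy3 (-0.33 to -0.48, adjusted p = 0.0517 to 0.133).

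**Figure D3:**
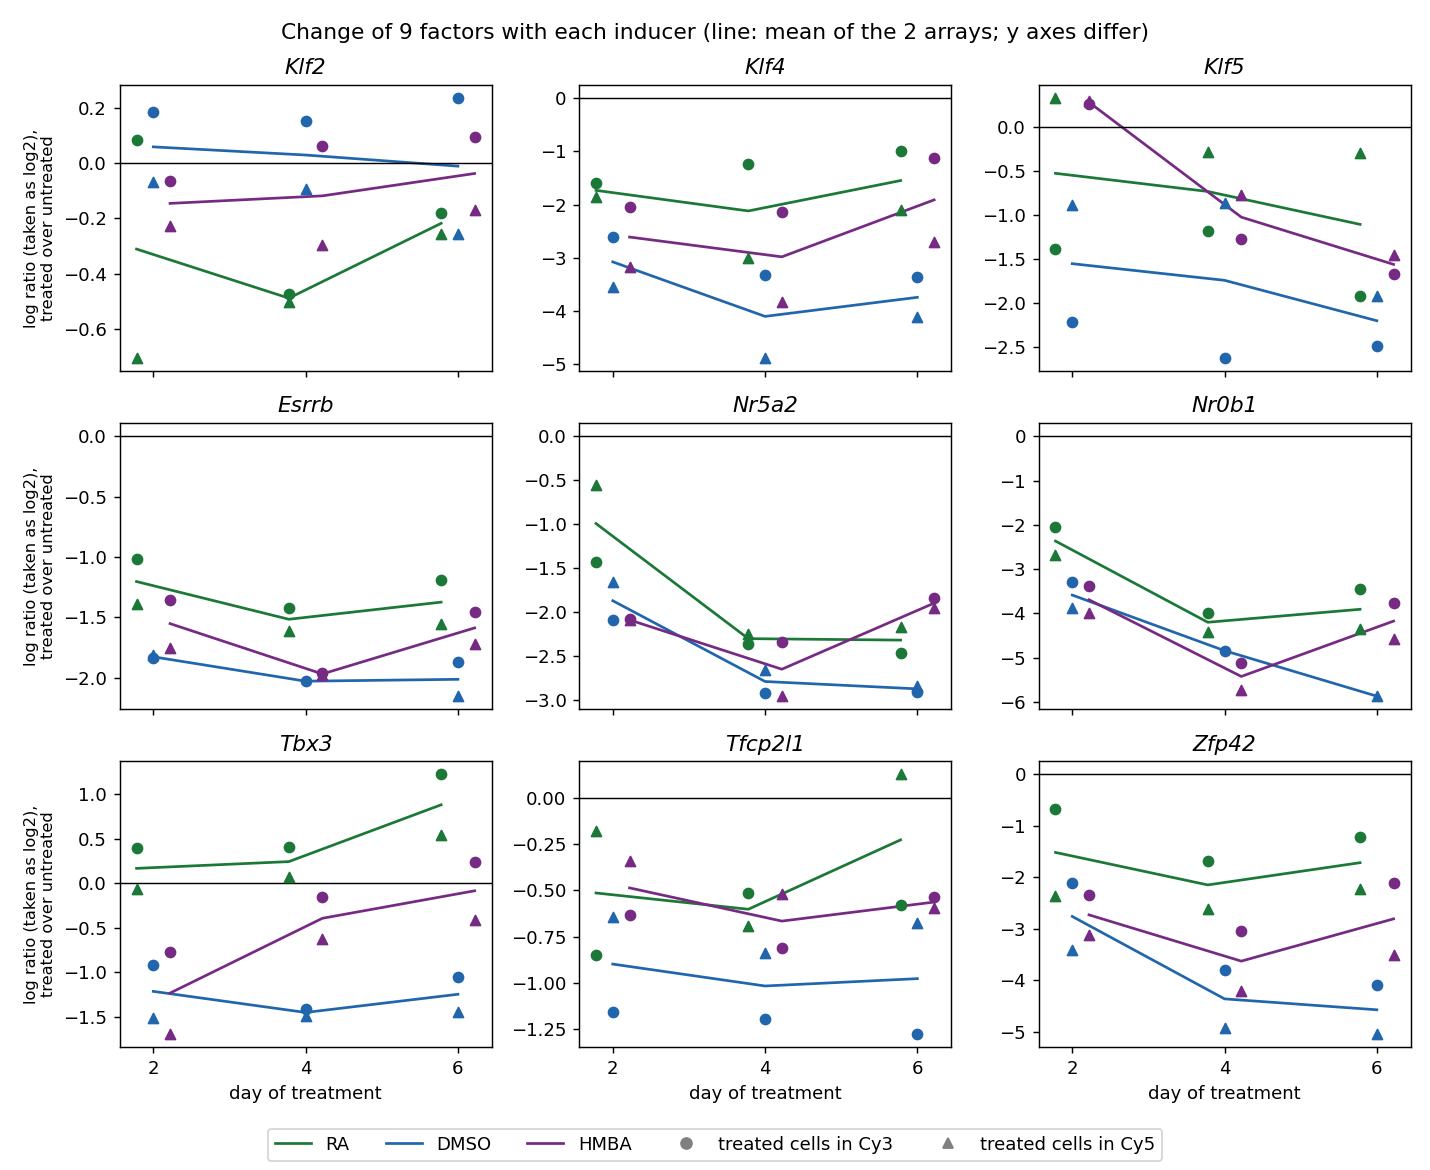
Log ratio of treated over untreated cells, taken as log2, for 9 factors by day of RA, DMSO and HMBA; circles are arrays with treated cells in Cy3, triangles those in Cy5, lines join the means, and y axes differ. Nr0b1, Zfp42 and Klf4 are below 0 on every array with a value, Klf2 lies between -0.70 and 0.23, and Tbx3 is above 0 on 5 of 6 RA arrays and below it on all DMSO arrays.

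By day, RA lowered 3, 5 and 4 of the 9 genes on days 2, 4 and 6 (2.19%, 3.68% and 5.25% of all genes). DMSO lowered 6, 7 and 8 (1.32%, 3.69% and 5.04%), and HMBA 6, 5 and 5 (2.21%, 5.81% and 6.86%). With the block the counts were 6, 8 and 6 for RA (9.71%, 13.8% and 17.8% of all genes), 8, 8 and 8 for DMSO (5.68%, 13.3% and 15.3%), and 7, 8 and 7 for HMBA (10.7%, 16.6% and 18.7%). With only 2 arrays a day, these counts rest on the spread shared by all 18 arrays, and single arrays ended some calls: Klf4 on HMBA day 6 was lost without any 1 of 9 arrays, Tbx3 on RA day 6 without 8, Zfp42 on RA day 6 without 7 and Tbx3 on DMSO day 2 without 6.

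On day 2 of DMSO and HMBA, 6 of the 9 factors were called lower and Pou5f1 was not. Pou5f1 read 0.15 and 0.33 on day 2 of DMSO (0.24 ± 0.20) and 0.10 and -0.38 on day 2 of HMBA (-0.14 ± 0.20), with 95% intervals of -0.19 to 0.67 and -0.57 to 0.29, and neither was called in either fit. On the same arrays Nr0b1 was at -3.58 ± 0.30 with DMSO and -3.69 ± 0.30 with HMBA, Klf4 at -3.08 ± 0.56 and -2.61 ± 0.56, and Zfp42 at -2.76 ± 0.52 and -2.73 ± 0.52. Without either array of its own day, Klf4 lost these calls (adjusted p = 0.125 and 0.384 with DMSO, 0.105 and 0.385 with HMBA), and so did Zfp42 (0.0869 and 0.484 with DMSO, 0.0894 and 0.234 with HMBA). Esrrb, Nr5a2 and Tbx3 were called lower there too, and the Tbx3 calls were lost without either DMSO array or without the HMBA array in Cy5 (adjusted p = 0.173, 0.746 and 0.501). Nanog was lower on day 2 of DMSO (-1.83 ± 0.28) and of HMBA (-1.17 ± 0.28). Sox2 was at -0.99 ± 0.61 and -0.92 ± 0.61, called lower with the block alone (adjusted p = 0.000426 and 0.000445). On day 2 of RA, Pou5f1 was called lower (-1.31 ± 0.20), while Nanog differed by -0.22 (95% interval -0.83 to 0.39).

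**Figure D4:**
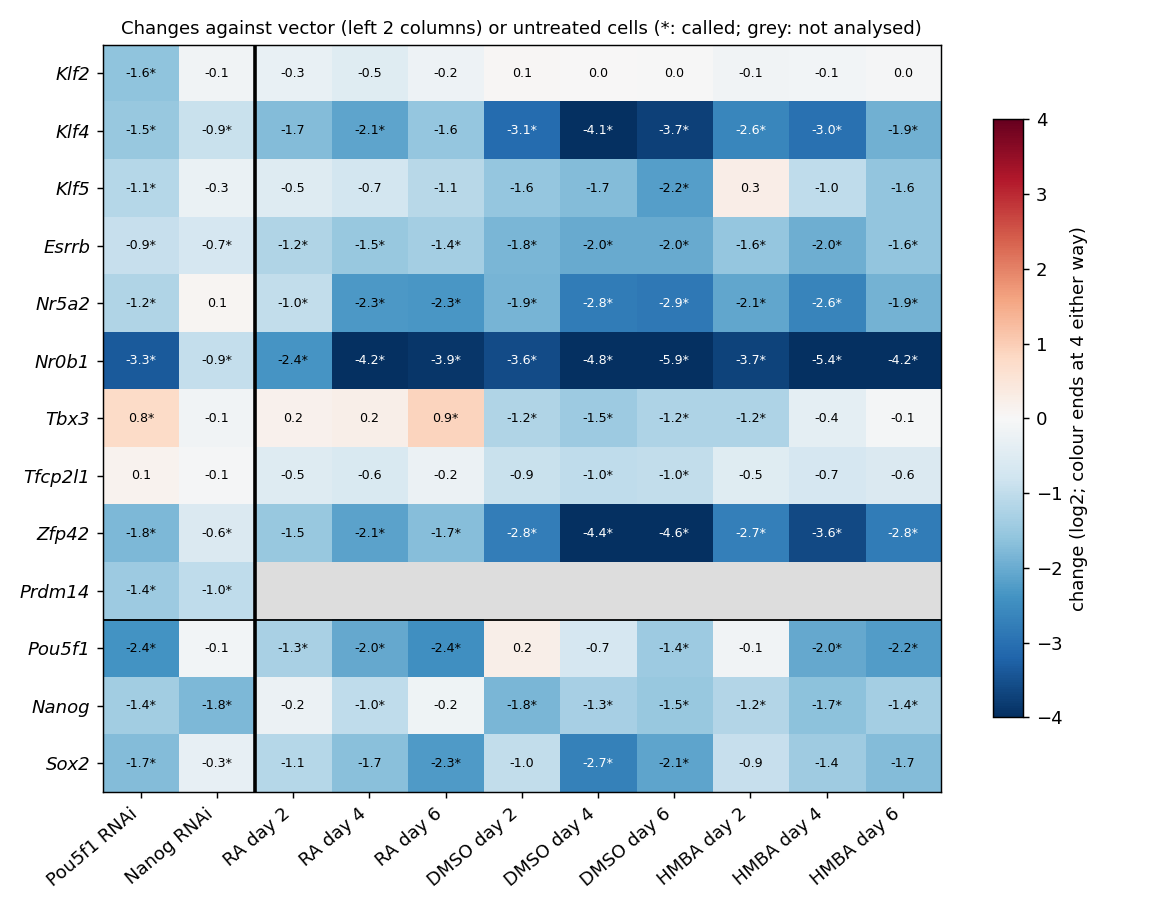
Change of the 10 factors, and of Pou5f1, Nanog and Sox2 below the line, after each knockdown against vector and on each treatment day against untreated cells, in log2 with a colour scale that ends at 4 either way; stars mark calls without the block and grey marks the gene not analysed. In the DMSO and HMBA day 2 columns Nr0b1, Zfp42 and Klf4 are blue while Pou5f1 is close to 0.

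From day 2 to day 6, 0 of the 9 genes were called in any treatment by limma without the block (at an unadjusted p under 0.05, 2 fell with RA, 3 fell with DMSO, and 1 fell and 1 rose with HMBA; 0.457%, 0.548% and 0.931% of all genes were called lower). With the block, Nr0b1 (-1.54 ± 0.17) and Nr5a2 (-1.32 ± 0.25) fell further with RA and Tbx3 rose (0.71 ± 0.19), where 4.79% of all genes were called lower and 7.41% higher. With DMSO, Nr0b1 (-1.96 ± 0.22), Zfp42 (-1.81 ± 0.20) and Nr5a2 (-1.001 ± 0.25) fell further (4.85% of all genes lower). With HMBA, Klf5 fell (-1.84 ± 0.35; 6.18% lower) and Tbx3 rose (1.15 ± 0.19; 5.13% higher). Klf5 on HMBA day 2 was still at 0.26 and 0.29, and by day 6 both arrays were below untreated cells, at -1.67 and -1.46.

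Between treatments, 6 genes were higher with RA than with DMSO over the days (4.29% of all genes higher): Zfp42 (2.10 ± 0.42), Klf4 (1.84 ± 0.46), Tbx3 (1.74 ± 0.22), Nr0b1 (1.27 ± 0.28), Nr5a2 (0.64 ± 0.17) and Esrrb (0.59 ± 0.15). Of these, Nr5a2 lost its call without 15 of 18 single arrays, Esrrb without 10 of 17, Klf4 without 8 of 18 and Nr0b1 without 4 of 16, with adjusted p up to 0.132, 0.113, 0.101 and 0.0657, while Tbx3 and Zfp42 kept theirs without any 1 array. With the block 8 were higher, adding Klf5 (1.04 ± 0.20) and Tfcp2l1 (0.52 ± 0.12), and Klf2 was lower (-0.36 ± 0.11), where 14.3% of all genes were higher and 9.38% lower. Pou5f1 was lower with RA than with DMSO (-1.31 ± 0.16).

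With RA against HMBA, Tbx3 alone was called higher (1.001 ± 0.22; 2.29% of all genes), a call lost without any 1 of 6 arrays, the RA arrays in Cy3 and the HMBA arrays in Cy5 (0.85 to 0.95, adjusted p = 0.0657 to 0.0820). With the block 5 were higher (10.6% of all genes), the others being Zfp42 (1.26 ± 0.12), Nr0b1 (0.94 ± 0.10), Klf4 (0.70 ± 0.16) and Esrrb (0.34 ± 0.10). With dye pairs averaged and days as the replicates, RA against HMBA gave 0 calls by limma (lowest adjusted p = 0.132, for Tbx3). DMSO against HMBA gave 0 calls by limma without the block (1.2% of all genes lower), with Klf4, Klf5 and Tbx3 lower at an unadjusted p under 0.05. With the block Klf4 (-1.14 ± 0.16), Klf5 (-1.06 ± 0.20), Zfp42 (-0.84 ± 0.12) and Tbx3 (-0.73 ± 0.11) were lower with DMSO (6.54% of all genes). With dye pairs averaged and days as the replicates this comparison also gave 0 calls by limma (lowest adjusted p = 0.370, for Klf4). Nr5a2 was not called between DMSO and HMBA in either fit, its difference of -0.30 having a 95% interval of -0.67 to 0.07 without the block.

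Whether the change between day 2 and day 6 differed between treatments was tested as an interaction. Without the block 0 genes were called by limma, and at an unadjusted p under 0.05 there were 0 between RA and DMSO, 1 between RA and HMBA and 3 between DMSO and HMBA. With the block Zfp42 was called between RA and DMSO (1.61 ± 0.28, 1.19% of all genes higher). Nr5a2 (-1.51 ± 0.35) and Nr0b1 (-1.06 ± 0.25) were called between RA and HMBA (0.658% of all genes lower). Zfp42 (-1.73 ± 0.28), Nr0b1 (-1.47 ± 0.28) and Tbx3 (-1.18 ± 0.27) were called between DMSO and HMBA (1.26% lower).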

How the data were processed

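Gene expression was measured on 14 Affymetrix mouse arrays and 18 2-colour arrays of total RNA. The deposited Affymetrix values are log2 levels made by RMA, per the submitters' processing notes. The deposited 2-colour values are log ratios, taken as log2, that read treated over untreated cells in both dye orientations, per the labels. Their normalization is not described there. The number of arrays limits the precision.

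The members, lists and motifs were chosen with earlier results of these data known. Control probe sets (64) were left out. limma 3.58.1 in R 4.3.3 (lmFit and eBayes) was fitted to all 45037 probe sets with the 3 groups, and to the 16657 2-colour probes with enough values of 21106 with the 9 treatment days. p-values were Benjamini-Hochberg adjusted over all probes, and intervals are 95%. Counts of genes use 1 probe a gene. All members are named with all their probes; of each list up to 4 genes of smallest p are named, with Pou5f1, Nanog, Sox2 and Cdx2 always allowed, and for each member the 3 genes of highest correlation.

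Missing 2-colour values were Esrrb on 1 DMSO day 4 array and Nr0b1 on 1 array each of DMSO days 4 and 6, and treatment means weight days equally. Replicate numbers in the labels mark the dye orientation on the 2-colour arrays, and arrays of the same number deviated together in 36 of 36 pairs (r = 0.51 to 0.92), so the replicate block is a pairing there. In the knockdowns 5 of 13 such pairs had r over 0.1 (-0.25 to 0.44), and the numbers were not taken as pairs. No 2 arrays held identical values. The fit without the block was tested on simulated data with independent noise and no dye effect, so shared dye deviations were not covered. For Pou5f1 RNAi against vector, 62.7%, 100% and 100% of changes of 0.5, 1 and 2 log2 were recovered. For the DMSO mean the shares were 28.4%, 74.6% and 97%. False calls were 8 of 183 and 11 of 144. Tables and figures were made with Python 3.11.15, pandas 2.3.3 and matplotlib 3.10.9.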

Additional observations from a re-analysis of the deposited data

Results flagged for a closer look

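Of 30 tests for a single array far from its group (Dixon's test, which marks about 5% of groups by chance), 3 were positive. Klf2 read 8.65 on Pou5f1 RNAi replicate 1, against 8.55 to 8.57 on the other 3 arrays. Klf2 read 10.40 on Nanog RNAi replicate 5, against 9.93 to 9.998 on the other 4. Klf4 read 8.98 on Nanog RNAi replicate 4, against 9.33 to 9.41 on the other 4, and this array is one of the 3 that stood apart. Leaving out any single array ended none of the Klf2 and Klf4 calls in the knockdowns.

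The change between day 2 and day 6 differed between treatments for 4 genes in the fit with dye orientation as the replicate block, and for 0 genes by limma without it. Zfp42 fell less with RA than with DMSO (difference 1.61, adjusted p = 0.00308) and more with DMSO than with HMBA (-1.73, adjusted p = 0.00139). Nr0b1 fell more with RA than with HMBA (-1.06, adjusted p = 0.045) and more with DMSO than with HMBA (-1.47, adjusted p = 0.00674). Nr5a2 fell with RA relative to HMBA (-1.51, adjusted p = 0.034), and Tbx3 was lower with DMSO relative to HMBA (-1.18, adjusted p = 0.0199). Each value rests on 2 arrays a treatment and day, with 1 array for Nr0b1 on DMSO day 6.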

How the results depend on the processing

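No call reversed its direction under any alternative run, and in the knockdowns the counts of called genes stayed at 9, 5 and 8 to 9 when each array was left out in turn (Pou5f1 RNAi against vector, Nanog RNAi against vector, and Pou5f1 RNAi against Nanog RNAi). The replicate block gave 9, 5 and 10 there, and quantile normalization again gave 9, 6 and 8. Keeping only probe sets with a mean of at least 6, which drops Prdm14, gave 8, 4 and 8. Leaving out the 3 arrays that stood apart, a choice made after seeing the data, gave 10, 6 and 8. Replicates 1 to 3 of each group alone, also not a planned choice, gave 9, 7 and 8. On the 2-colour arrays the replicate block raised the counts to 6 on RA day 2, 8 on RA day 4 and 8 on HMBA day 4, to 3, 3 and 2 for the day 6 minus day 2 changes with RA, DMSO and HMBA, to 5 for RA against HMBA and 4 for DMSO against HMBA, and to 1, 2 and 3 for the differences in those changes (RA against DMSO, RA against HMBA, DMSO against HMBA). Scale normalization gave 3 on RA day 6 and 3 for RA against HMBA. Probes complete on all arrays, which drops Esrrb and Nr0b1, gave 1, 3 and 3 on RA days 2, 4 and 6 and 3 and 3 on HMBA days 4 and 6. Fitting only a treatment's own arrays gave 1 and 3 on RA days 2 and 6 and 2 on DMSO day 2. Averaging dye pairs and taking the days as replicates, 2 changes together, gave 3 for RA against DMSO and 0 for RA against HMBA. Leaving out single arrays gave 1 to 3, 3 to 5 and 2 to 5 on RA days 2, 4 and 6, 3 to 6, 3 to 8 and 3 to 8 on the DMSO days, and 3 to 6, 3 to 5 and 3 to 6 on the HMBA days. The same gave 2 to 5 for RA against DMSO, 0 to 1 for RA against HMBA and 0 to 1 for RA day 6 minus day 2, and 5 to 8, 6 to 8 and 6 to 8 for the means of RA, DMSO and HMBA. Without DMSO day 4 in Cy3, or DMSO day 6 in Cy5, Esrrb or Nr0b1 or both could not be fitted, and those 2 arrays gave the lowest counts for RA days 2, 4 and 6, DMSO days 4 and 6, and HMBA days 4 and 6. DMSO day 2 fell to 3 without either of its arrays, and RA day 4 to 3 and HMBA days 2 and 6 to 3 without their own Cy5 arrays. RA against DMSO fell to 2 without RA day 4 or 6 in Cy3 or DMSO day 2 or 6 in Cy5. The cause of the other shifts was not tested. The log base of the ratios, the origin of the arrays in separate cultures and the 2 arrays per day limit what can be read from single days.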
